A study of Mus musculus with 5 samples.

Results

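Non-classical major histocompatibility complex (MHC) class I genes were followed in brain nuclei of mice with a cGAS allele that cannot be held inactive by nucleosomes. The 7 genes H2-Q4, H2-Q6, H2-Q7, H2-T22, H2-T23, H2-T24 and H2-M3 were chosen by name, out of 32285 genes in the count tables, and all 7 had at least 1 molecule in each library. Single-nucleus RNA sequencing was done on nuclei sorted as negative for NeuN (neurons) and Olig2 (oligodendrocyte lineage) to enrich microglia, with hippocampus given as the source. There were 5 libraries, each from 1 mouse. The 2 R241E mice were Tmem119-creERT2; Cgas wt/R241E, in which Cre under the promoter of the microglial gene Tmem119 switches on the mutant allele after tamoxifen. The 3 WT mice carried the same driver with Cgas wt/wt. By the study's account, recombination by this driver falls chiefly on microglia and macrophages of the brain. Per its methods tamoxifen was given to young adult mice, and the allele was made in C57BL/6J zygotes. One passage of the study calls the control mice Cgas WT/R241E, whereas its methods and the sample titles call them wt/wt, and the titles were followed. Gene counts do not show which Cgas allele a nucleus carried.

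Class I molecules are pairs of a heavy chain and the light chain beta 2-microglobulin. The classical heavy chains (H2-K1 and H2-D1 here) vary widely between individuals and show peptides to CD8 T cells, whereas the non-classical, or class Ib, chains encoded in the H2-Q, H2-T and H2-M regions vary little and serve narrower tasks. H2-T23 encodes Qa-1, which holds leader peptides of classical chains and is read by the CD94-NKG2 receptors of natural killer and T cells. H2-Q7 and H2-Q6 encode chains of the Qa-2 group, which can be anchored to the membrane by lipid. H2-M3 shows peptides that begin with N-formyl methionine, as bacterial and mitochondrial proteins do, and H2-T22 is recognised by some gamma delta T cells and holds no peptide. The tasks of H2-Q4 and H2-T24 are less well known. Class I genes are low in the resting brain, and interferons raise them through the transactivator NLRC5 and through IRF factors.

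All 7 genes lie on chromosome 17. In the RefSeq annotation of GRCm38.p6, the same assembly as mm10 to which the reads were mapped, H2-Q4 spans 35379617 to 35384674, H2-Q6 spans 35424850 to 35430055 and H2-Q7 spans 35439140 to 35443773. Farther along come H2-T24 (36003471 to 36020800), H2-T23 (36029977 to 36032701), H2-T22 (36037128 to 36042742) and H2-M3 (37270234 to 37274485). RefSeq promoter windows of 250 bases before to 50 bases after the start site were held for 6 of the 7 genes, and not for H2-T24. They are shown because class I promoters carry short elements at which interferon-driven and constitutive factors bind. The stretch of each window that holds the motifs, up to the start site, is printed 5′ to 3′ on the strand of the gene, with motif matches in capitals.
H2-Q4 (chr17:35379454-35379576, plus strand): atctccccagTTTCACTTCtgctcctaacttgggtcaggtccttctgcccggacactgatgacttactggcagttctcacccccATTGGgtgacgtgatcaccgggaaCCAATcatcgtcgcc
H2-Q6 (chr17:35424668-35424809, plus strand): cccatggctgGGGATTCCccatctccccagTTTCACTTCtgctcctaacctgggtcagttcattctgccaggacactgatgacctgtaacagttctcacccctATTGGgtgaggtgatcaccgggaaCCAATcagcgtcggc
H2-Q7 (chr17:35439013-35439153, plus strand): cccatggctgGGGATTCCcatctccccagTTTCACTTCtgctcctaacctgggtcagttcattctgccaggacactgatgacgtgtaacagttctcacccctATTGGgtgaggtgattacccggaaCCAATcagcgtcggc
H2-T22 (chr17:36042791-36042953, minus strand): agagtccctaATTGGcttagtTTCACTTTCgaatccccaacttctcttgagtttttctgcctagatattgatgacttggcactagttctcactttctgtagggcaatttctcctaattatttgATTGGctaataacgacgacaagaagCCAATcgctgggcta
H2-T23 (chr17:36032739-36032834, minus strand): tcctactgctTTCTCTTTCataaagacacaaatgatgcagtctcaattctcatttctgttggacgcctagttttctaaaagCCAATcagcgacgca
H2-M3 (chr17:37270095-37270227, plus strand): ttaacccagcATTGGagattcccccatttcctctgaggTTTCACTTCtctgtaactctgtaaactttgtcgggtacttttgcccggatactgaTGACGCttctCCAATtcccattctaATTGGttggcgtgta

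Searched on both strands were GAAANNGAA (the core of an interferon response element), GGGATTCC (the kappa B motif of the class I enhancer A), TGACGC (the X2 box) and CCAAT (the Y box). GAANNGAAA was added after the windows had been read. CCAAT was in all 6 windows, against 37.4% of 32851 promoters of the same length. GAAANNGAA was in the windows of H2-T22 and H2-T23 and in 8.56% of all promoters. GAANNGAAA was in those of H2-Q4, H2-Q6, H2-Q7 and H2-M3 and in 7.52% of all. The kappa B letters were in H2-Q6 and H2-Q7 and in 1.06% of all, and TGACGC was in H2-M3 and, past the start site and so not printed, in H2-Q4, and in 7.4% of all. The printed stretches make the kinship of the Q genes visible. The whole windows of H2-Q6 and H2-Q7 were identical at 255 of 340 alignment columns (75%), where columns with a gap, also at the ends, count as unlike. These 2 windows were out of register, with the kappa B letters starting at -172 in H2-Q6 and at -132 in H2-Q7. H2-Q4 and H2-Q6 were identical at 78.2% of columns, so the 2 percentages do not rank which pair is closer. Every pair between a Q gene and H2-T22, H2-T23 or H2-M3 lay between 46.4% and 50.8%. A match to such letters is a description of the sequence and not of binding.

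How well a read can be given to one of these genes differs among them. In the later assembly GRCm39, the share of 90-base runs of exon sequence with another exact copy on the chromosomes was 0% for H2-M3, 9.97% for H2-T24, 10.3% for H2-T23, 12.7% for H2-T22 and 20.9% for H2-Q4. It was 95.5% for H2-Q7 and 96.5% for H2-Q6. These libraries are read from the 3′ end. Of exon runs reaching into the last 500 bases of the GRCm39 gene span, 100% were copied for H2-Q6 and H2-Q7 (81 and 500 runs). The share there was 13.6% for H2-Q4, 10% for H2-T24 and 0% for H2-T22, H2-T23 and H2-M3. A GRCm39 span can be longer than the RefSeq span, as for H2-Q6 (11467 runs), so its end need not be the end that was read. Of the H2-Q7 exon runs, 29.8% had a copy in H2-Q6, and of the H2-Q6 exon runs 9.5% had one in H2-Q7. Not all places of the other copies were recorded. H2-Q8 and H2-Q9, close copies that are not among the genes of the count tables, could contribute to the H2-Q6 and H2-Q7 counts. Whether they did was not tested. These sources cannot be told apart, so H2-Q6 and H2-Q7 are also given as their sum. H2-M3 lies whole within the span of the long non-coding RNA Gm20429 on the same strand, with no exonic base shared. H2-T23 and H2-T24 lie within the span of A930015D03Rik on the opposite strand, whose exons overlap 11.9% and 10.4% of their exon bases and 29.8% of those of H2-T22. Gm11131 overlaps 16.6% of the exon bases of H2-Q4 on the opposite strand. Whether strand entered the counting is not stated.

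Of 9748 nuclei deposited, 9505 were kept, with medians of 2125.5 to 3364 unique molecular identifiers (UMIs, 1 for each captured RNA molecule) per library. The libraries held 4183709 to 10130667 UMIs in all. Clusters were named from marker genes and gave 5378 microglial nuclei, 524 to 1471 per library, in which the 10 microglial markers summed to 7344 to 8686 CPM (UMIs per 1000000 UMIs). Of the other classes, those with 20 or more nuclei in each mouse were astrocytes, border-associated macrophages, fibroblasts, mural cells, neurons and oligodendrocytes. In 13 cases a barcode was found in more than 1 library. Counts were summed over the nuclei of a class in each library, levels are CPM of that sum, and R241E was compared with WT by edgeR's quasi-likelihood test with Benjamini-Hochberg adjustment over all genes tested in the class, a call being an adjusted p under 0.05. In such sums, fewer expressing nuclei and less RNA per nucleus cannot be told apart.

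The microglia of each group lay largely in different clusters. Clusters 1, 7 and 13 held 473, 216 and 222 nuclei of R241E replicate 1 and 32, 3 and 4 of WT replicate 1, clusters 18 and 19 held 9 and 8 against 660 and 158, and cluster 16 held 69 to 453 in every library. Genes of the interferon response (Ifi204, Ifi207, Epsti1) led cluster 13. In each of the 6 clusters all 10 microglial markers were found in at least 10% of nuclei, and the clusters were summed as 1 class.

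In microglia all 7 genes rose in R241E mice, whereas 6.04% of the 12727 genes tested were called higher. Both R241E libraries lay above all WT libraries for all 7, as they did for 20.4% of genes tested. The median log2 fold change of the 7 genes was 2.52, beside -0.0046 over all genes tested. The increases fell into an order: H2-Q6 and H2-Q7 by over 6 on the log2 scale, H2-Q4 by nearly 4, H2-M3, H2-T22 and H2-T23 by 2 to 3, and H2-T24 by less than 1. H2-Q6 and H2-Q7 passed the filter on low counts (3.14 CPM in 2 libraries) only through the R241E libraries. The other 5 also reached it in all WT libraries.

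H2-Q6 had 122 CPM in R241E replicate 1, 98.2 CPM in replicate 2 and, in WT, 1.62, 0.922 and 0.5998 CPM. The WT values rest on 10 UMIs in all and the R241E values on 530, so the gene was nearly absent from WT microglia and plain in both R241E mice. The log2 fold change was 6.74 (SE 0.25, adjusted p = 7.49e-11, n = 2 and 3). H2-Q7 had 168 and 108 CPM in R241E, against 1.21, 1.38 and 1.80 CPM in WT. Its WT counts were 3, 6 and 6 UMIs, and its log2 fold change was 6.52 (SE 0.27, adjusted p = 2.03e-10). Added together, these Qa-2 group genes gave 290 and 206 CPM in R241E and 2.83, 2.31 and 2.40 CPM in WT, a log2 fold change of 6.63 (SE 0.21). The sum does not depend on how reads were divided between the 2 genes. The share of H2-Q7 in the summed UMIs was 58.0% in R241E replicate 1 (exact 95% binomial interval 54.7 to 61.2) and 52.3% in replicate 2 (46.5 to 58.1). In WT it was 60% of 25 UMIs (38.7 to 78.9), so no change in the split was detectable at this depth.

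H2-Q4, the neighbouring gene of the Q region, had 113 and 84.4 CPM in R241E and 9.30, 7.15 and 5.998 CPM in WT. The groups were far apart, with a log2 fold change of 3.76 (SE 0.20, adjusted p = 3.54e-09). Gm11131, which overlaps H2-Q4 on the opposite strand and was looked at after its values were seen, also rose, with 8.79 and 4.15 against 2.83, 2.54 and 0.8996 CPM (1.74, SE 0.49, adjusted p = 0.0373). H2-M3, the presenter of N-formyl peptides, had nearly equal levels in the R241E mice, 59.99 and 59.5 CPM, and 9.30, 8.99 and 12.6 CPM in WT. Its log2 fold change was 2.52 (SE 0.18, adjusted p = 1.43e-07). Gm20429, the RNA whose span covers H2-M3 and which was picked out after its values were seen, had 201 UMIs in R241E replicate 1 and 41 in replicate 2, and 1 UMI in WT. Reads of H2-M3 introns and of this RNA were not separated.

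H2-T23, the Qa-1 gene, had 119 and 119.7 CPM in R241E against 19.4, 24.2 and 33.9 CPM in WT. Its log2 fold change of 2.17 (SE 0.16, adjusted p = 2.62e-07) was matched by H2-T22, a ligand of gamma delta T cell receptors, at 2.18 (SE 0.17, adjusted p = 3.15e-07). H2-T22 had 81.0 and 69.2 CPM in R241E and 13.3, 18.9 and 16.2 CPM in WT. H2-T24 differed from the other 6. WT microglia held 51.3, 52.6 and 47.7 CPM of it and R241E microglia 99.9 and 58.1 CPM, so that R241E replicate 2 lay just above the highest WT library. The log2 fold change was 0.69 (SE 0.18, adjusted p = 0.0219), and without R241E replicate 1 it was 0.17 (adjusted p = 0.731). The increase of H2-T24 thus rests on 1 library, and its call was also lost without WT replicate 1 (adjusted p = 0.0627) or WT replicate 2 (adjusted p = 0.0509). A930015D03Rik, whose span covers H2-T24 and H2-T23 on the opposite strand, had a log2 fold change of 0.01 (SE 0.10).

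**Figure D1:**
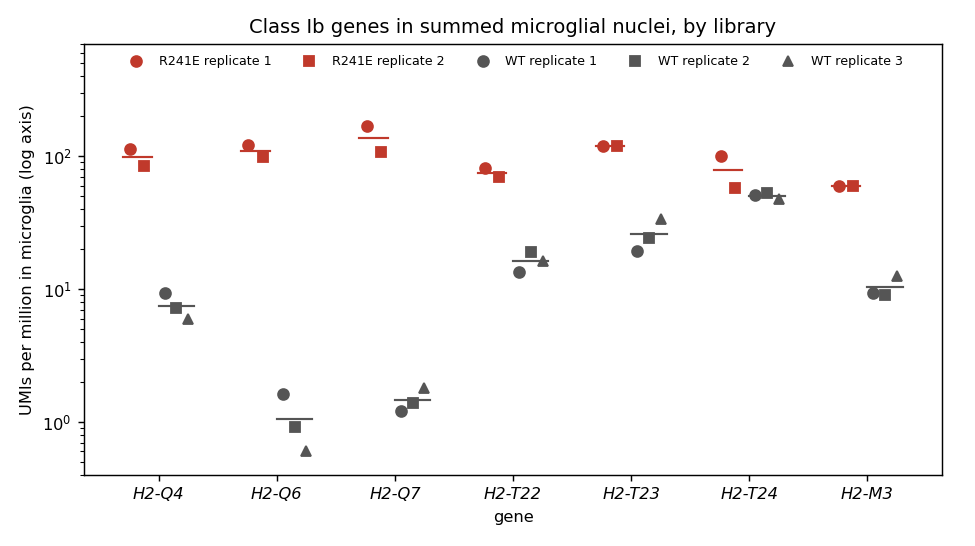
CPM of the 7 class Ib genes (log axis) in summed microglial nuclei of each library, with a line at the mean of each group (2 R241E and 3 WT mice). The gap between groups was widest for H2-Q6 and H2-Q7, from near 1 to over 98 CPM, and narrowest for H2-T24, for which R241E replicate 2 (58.1 CPM) lay close to the WT libraries (47.7 to 52.6 CPM).

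Markers of other cells were counted in the same microglial sums. The 8 border-associated macrophage markers summed to 98.3 and 143 CPM in R241E and to 211 to 240 CPM in WT. The 8 monocyte or neutrophil markers summed to 739 and 641 CPM in R241E and to 560 to 578 CPM in WT, the 11 lymphocyte markers to 71.9 and 67.1 against 59.4 to 60.7 CPM, and the 7 oligodendrocyte markers to 218 and 304 against 127 to 144 CPM. None of these markers was at 0. With nuclei holding a UMI of the macrophage, monocyte or lymphocyte markers left out, 101 to 319 nuclei per library remained. There 6 of the 7 genes were called, beside 325 of 6351 genes called higher. H2-T24 was lost at a log2 fold change of 0.86 (edgeR adjusted p = 0.145). Csf3r was then kept out of that list, which was decided after the data had been seen because microglial clusters carried it. In that setting 310 to 744 nuclei per library remained and all 7 were called, beside 593 of 10999 genes called higher.

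Per nucleus, class Ib transcripts were found in more microglia of R241E mice. Each microglial nucleus was thinned to 1000 UMIs so that depth was equal, which left out 9 to 64 shallower nuclei per library. At least 1 UMI of any of the 7 genes was found in 51.9% of nuclei in R241E replicate 1 (48.7 to 55.0) and in 43.6% in replicate 2 (39.2 to 48.1). In WT the shares were 9.97% (8.09 to 12.1), 9.88% (8.39 to 11.5) and 12.2% (10.5 to 14.0), all with exact 95% binomial intervals that cover counting error only. The mean share was 47.7% ± 5.86 (SD, n = 2) in R241E and 10.7% ± 1.31 (SD, n = 3) in WT. The difference of 37.0 percentage points gave p = 0.1 in a two-sided exact permutation test, the smallest p that 2 against 3 libraries allow. Without thinning, at median depths of 2061 to 3056 UMIs, the shares were 81.4% and 66.2% against 23.002%, 26.1% and 23.1%.

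H2-Q7 was seen in 16.3% and 9.64% of thinned R241E microglia and in 0.221%, 0.138% and 0.288% of WT microglia. H2-Q6 was seen in 11.8% and 7.83%, against 0.111%, 0.0691% and 0 of 1387 nuclei, the last of which allows a share of up to 0.266% by the exact interval. H2-T24 showed the smallest contrast, 8.73% and 5.82% against 3.99%, 4.49% and 4.398%. Nuclei with 2 or more different class Ib genes made up 15.4% and 9.24% of R241E microglia and 0%, 0.484% and 0.433% of WT microglia, and up to 4 of the 7 were found together in 1 thinned nucleus. Neurons, which should carry little class I RNA, had any of the 7 genes in 6.48% and 6.67% of thinned nuclei in R241E and in 1.49%, 2.06% and 4.17% in WT, at unthinned median depths of 2612 to 5326 UMIs. The neuronal shares were themselves higher in both R241E libraries than in all WT libraries, and whether they are background was not tested. The neuronal class also differed between libraries. Cluster 20 held 147 of the 271 neurons of WT replicate 1 and 2 to 22 in each other library. Oligodendrocyte precursor markers summed to 3171 CPM in WT replicate 1 and to 704 to 1138 CPM in the others. The R241E microglial shares were far above the neuronal shares, and the WT microglial shares exceeded the WT neuronal shares in all 3 libraries.

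Members and other interferon-driven transcripts were then compared nucleus by nucleus. A list of 28 interferon-response genes used by the study, which holds none of the 7, was counted in each thinned microglial nucleus. Among nuclei with 0 UMIs of that list, the 7 class Ib genes summed to 540 and 542 CPM in R241E (150 and 107 nuclei) and to 97.6, 109 and 137 CPM in WT (635, 972 and 943 nuclei). The R241E levels in these nuclei lay above every WT level, with 95% counting intervals of 429 to 671 and 412 to 701 CPM against an upper bound of 163 CPM in WT. With 1 to 2 list UMIs the sums were 709 and 541 against 97.2, 89.9 and 102 CPM. With 3 or more they were 957 and 698 in R241E (442 and 162 nuclei) and 238, 341 and 176 CPM in WT, the WT values resting on 21, 41 and 51 nuclei. The 0 bin depends on depth. Without thinning, only 40 and 46 R241E nuclei held no list UMI and 824 and 355 held 3 or more. Many thinned nuclei of the 0 bin thus held list UMIs at full depth. In the 40 and 46 nuclei the 7 genes summed to 598 and 489 CPM, against 109, 106 and 127 CPM in WT nuclei without a list UMI. In neurons, for comparison, the 7 genes summed over all nuclei to 92.2 and 65.1 CPM in R241E and to 39.97, 47.7 and 56.5 CPM in WT.

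The genes did not behave alike across these bins. H2-Q6 had 66.7 and 84.1 CPM in R241E nuclei without a list UMI, where all 3 WT libraries had 0 UMIs. H2-Q7 had 120 and 46.7 CPM there, against 1.57, 1.03 and 2.12 CPM. H2-T24, by contrast, had 26.7 and 46.7 CPM in these R241E nuclei, from 4 and 5 UMIs, and 44.1, 44.2 and 50.9 CPM in WT, so it was not higher in R241E where no list UMI was seen. With 1 to 2 list UMIs H2-T24 had 81.5 and 65.5 CPM in R241E, above the 28.3, 48.4 and 30.5 CPM of WT. With 3 or more list UMIs H2-T24 reached 127 and 61.7 CPM in R241E and 47.6, 146 and 58.8 CPM in WT. The interval of the lone higher WT value, from 6 UMIs, ran from 53.7 to 319 CPM. No test was made between bins, since their nuclei share libraries.

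**Figure D2:**
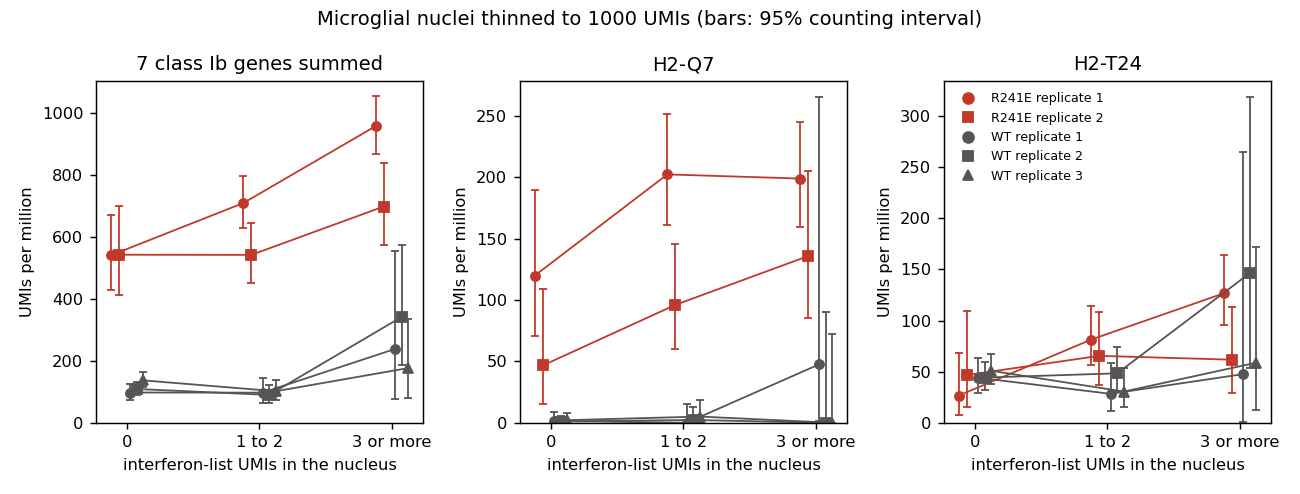
CPM of the 7 class Ib genes summed, of H2-Q7 and of H2-T24 in thinned microglial nuclei with 0, 1 to 2 or 3 or more UMIs of a 28-gene interferon list, 1 line per library, with 95% counting intervals. Summed class Ib RNA was at 540 and 542 CPM in R241E nuclei with 0 list UMIs after thinning, above all WT libraries, whereas H2-T24 was not. Many of these nuclei held list UMIs before thinning.

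Border-associated macrophages, in which the driver is also described as active, were the class nearest to microglia. The 7 genes summed to 508 and 417 CPM in R241E and to 170, 100 and 188 CPM in WT. Of the 4 members that passed the filter there, 1 was called, H2-Q4, beside 0.811% of 3947 genes called higher. H2-Q4 had 107 and 70.8 CPM in R241E and 26.1, 0 and 17.1 CPM in WT, from 35, 9, 4, 0 and 3 UMIs, with a log2 fold change of 2.66 (SE 0.65, adjusted p = 0.0421). That call was lost without R241E replicate 1, WT replicate 2 or WT replicate 3, with adjusted p of 0.793, 0.222 and 0.101. H2-Q7 had 76.6 and 62.9 against 13.1, 6.27 and 11.4 CPM (log2 fold change 2.73, SE 0.78, adjusted p = 0.125). H2-T23 had 94.9 and 78.6 against 19.6, 43.9 and 34.2 CPM (1.44, SE 0.48, adjusted p = 0.250), and H2-T24 82.7 and 70.8 against 52.3, 37.6 and 51.4 CPM (0.74, SE 0.44, adjusted p = 0.731). These groups did not overlap for any of the 4, but all 4 passed the filter only through the R241E libraries, and the counts were small. The share of all genes tested in this class whose groups did not overlap was not counted, so the non-overlap cannot be weighed.

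Whether the genotype effect itself differed between microglia and another class was tested with library as a block. H2-Q7 had a larger effect in microglia than in border-associated macrophages, by 3.69 on the log2 scale (SE 1.02, adjusted p = 0.0404), beside 0.504% of 10920 genes with a larger effect. This was the only member called against any of the 4 classes tested in this fit, and leaving out any 1 library ended the call, with adjusted p from 0.0509 to 0.431. For H2-T24 the effects in these 2 classes were close (difference -0.04, SE 0.47). Against astrocytes, oligodendrocytes and neurons edgeR called no member, beside 0.494%, 0.579% and 0.0575% of genes with a larger effect in microglia. The lowest adjusted p there belonged to H2-T22 (2.19, SE 0.49, adjusted p = 0.116) and H2-Q7 (5.20, SE 1.27, adjusted p = 0.137) against neurons and, in the other direction, to H2-T23 against oligodendrocytes (adjusted p = 0.133). The size of the last is not fixed by these counts, since WT oligodendrocytes held 0 UMIs: it was -6.65 by edgeR and -2.09 by limma-voom. Voom called H2-Q6 and H2-Q7 against macrophages (adjusted p = 0.0233 and 8.26e-04), astrocytes (0.00215 and 0.00327) and oligodendrocytes (0.00456 and 0.00466), where H2-Q6 had no UMI in WT astrocytes or oligodendrocytes. Without WT replicate 1, H2-Q7 was called against neurons (5.63, SE 1.46, adjusted p = 0.0398).

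H2-T23 was also found in R241E nuclei of classes outside the myeloid lineage. It had 22.6 and 37.8 CPM in R241E oligodendrocytes, from 30 and 11 UMIs, and no UMI in the 3 WT libraries. Against a floor of 3 UMIs over the WT group, it was at least 9.27-fold higher. The gene fell under the filter there and so was not tested. With no filter it was called by edgeR (adjusted p = 1.02e-05), beside 42 of 18742 genes called higher in that setting. Mural cells showed the same picture at lower counts, 32.8 and 44.6 CPM in R241E from 14 and 12 UMIs, with 0 UMIs in the WT libraries, so at least 5.04-fold higher. Here too edgeR called it only with no filter (adjusted p = 0.0321), beside 2 of 17016 genes called higher. No member passed the filter in either class, in which 0.208% and 0% of genes were called higher. In mural cells edgeR called 0 genes lower and 174 genes were at an unadjusted p under 0.05, and voom called 0 higher.

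The make-up of the astrocyte class differed between libraries. Cluster 14 held 133 nuclei of R241E replicate 1 and 12 to 19 of each other library. Cluster 23 held 5 nuclei of R241E replicate 1, 43 of R241E replicate 2 and 26, 42 and 113 of the WT libraries. What part this had in the astrocyte values was not tested. Astrocytes had 38.05 and 22.8 CPM of H2-T23 in R241E and 0, 9.49 and 1.80 CPM in WT, a log2 fold change of 3.27 (SE 0.73, adjusted p = 0.208). H2-T22 stood there at 46.9 and 26.6 against 9.62, 6.33 and 18.0 CPM (1.66, SE 0.45, adjusted p = 0.393). The groups did not overlap for either gene, yet neither was called, beside 0.105% of 8564 genes called higher. Both genes passed the filter there only through the R241E libraries. The share of all genes tested in astrocytes whose groups did not overlap was not counted. With no filter edgeR called both (adjusted p = 5.25e-05 and 0.0224), beside 104 of 20778 genes called higher in that setting. In fibroblasts H2-T22 had 57.9 and 51.3 against 31.98, 28.5 and 27.1 CPM (0.99, SE 0.39, adjusted p = 0.600) and H2-T23 78.6 and 59.5 against 21.3, 36.6 and 58.0 CPM (0.76, SE 0.36, adjusted p = 0.724), with 0% of genes called higher by edgeR (413 genes at an unadjusted p under 0.05, 0 called higher by voom). H2-T22 passed the filter in fibroblasts, too, only through the R241E libraries. In neurons, with 0.0113% of genes called higher, H2-T22 and H2-T24 had log2 fold changes of 0.10 (SE 0.54) and 0.06 (SE 0.44). Their groups overlapped there. H2-T24 was the 1 gene whose R241E libraries both lay below WT in any class: 9.66 and 8.21 against 42.6, 12.2 and 27.1 CPM in fibroblasts and 6.79 and 6.87 against 10.1, 13.9 and 14.6 CPM in oligodendrocytes. These rest on 2 to 9 UMIs per library and lay under the filter, so they were not tested.

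The balance of T and Q region transcripts was compared between classes. Of the UMIs of H2-T22, H2-T23, H2-Q6 and H2-Q7 together, the 2 T genes made up 40.8% (38.3 to 43.3) and 47.8% (43.6 to 52.0) in R241E microglia and 92.0%, 94.9% and 95.4% in WT microglia. In R241E border-associated macrophages they made up 54.7% and 66.7%. In the R241E libraries together the share was 91.8% of 73 UMIs in oligodendrocytes (83.0 to 96.9), 92.5% of 173 UMIs in astrocytes (87.5 to 95.9) and 95.03% of 161 UMIs in fibroblasts (90.4 to 97.8). In R241E microglia together it was 42.7% (40.6 to 44.8). These intervals cover counting error only and not the spread between mice. By library, R241E replicates 1 and 2 had 89.3% and 100% in oligodendrocytes, 91.8% and 96.3% in astrocytes and 95.2% and 94.7% in fibroblasts. All of these lay above both R241E microglial libraries. What part free microglial RNA had in the counts of these 3 classes was not tested. In R241E mural cells the share was 83.1% of 59 UMIs (71.0 to 91.6), and in R241E neurons 76.6% of 47 UMIs (62.0 to 87.7). In WT the share ran from 81.2% of 32 UMIs in border-associated macrophages (63.6 to 92.8) to 100% in fibroblasts and mural cells, with 94.6% in microglia (92.1 to 96.5). The Q genes counted here are those whose exon runs are mostly copied elsewhere, so their counts may hold or lack reads of copies. The 10 microglial markers summed in R241E to 240.8 and 223 CPM in oligodendrocytes, 303 and 369 CPM in astrocytes and 337 and 263 CPM in fibroblasts, and in WT to 169 to 611, 308 to 527 and 181 to 537 CPM.

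**Figure D3:**
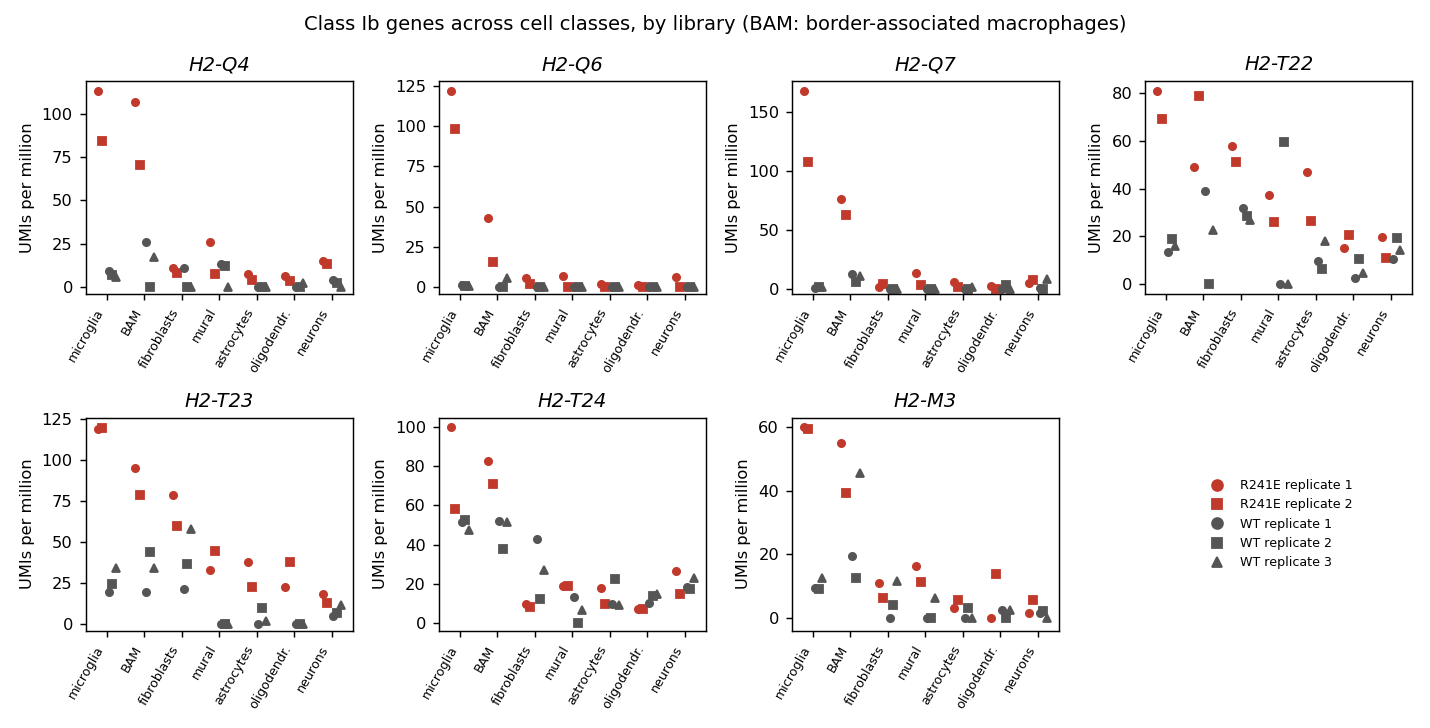
CPM of each class Ib gene in summed nuclei of 7 cell classes, 1 point per library, on a linear axis of its own for each gene. H2-Q6 and H2-Q7 were high in R241E microglia and, lower, in R241E border-associated macrophages. H2-T22 and H2-T23 were also found above WT in R241E astrocytes. So were H2-Q4, H2-Q7 and H2-M3, at only 1.90 to 7.61 CPM.

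**Figure D4:**
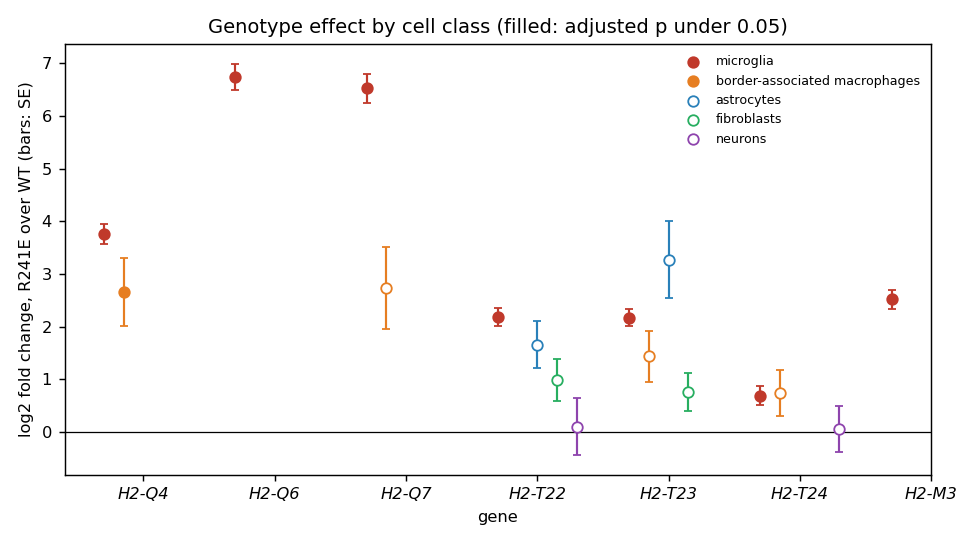
Log2 fold change of R241E over WT with its SE for each class Ib gene in the classes where it passed the filter on low counts, filled where the adjusted p was under 0.05. All 7 microglial points and H2-Q4 in border-associated macrophages were called, and the 2 neuronal points lay near 0.

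In WT mice the order of the 7 tested classes depended on the gene. Classes with too few nuclei to test are not ranked, and among them lymphocytes had higher WT means of H2-Q6 and H2-Q7 (301 and 535 CPM) than any tested class. Among the tested classes H2-T24 was led by microglia (50.5 CPM ± 2.55, SD, n = 3) and border-associated macrophages (47.1 ± 8.22), which overlapped, followed by fibroblasts (27.3 ± 15.2), neurons (19.5 ± 2.79), astrocytes (13.6 ± 7.41), oligodendrocytes (12.9 ± 2.40) and mural cells (6.41 ± 6.49). Each class overlapped the next in this order. For H2-T23 the order of tested classes was fibroblasts (38.6 ± 18.4), border-associated macrophages (32.6 ± 12.2) and microglia (25.8 ± 7.37), which overlapped, then neurons (7.54 ± 3.38) and astrocytes (3.76 ± 5.04), with no UMI in mural cells and oligodendrocytes. All WT microglial libraries lay above all neuronal ones for H2-T23. For H2-T22 fibroblasts led the tested classes (29.2 ± 2.54) and oligodendrocytes came last (5.93 ± 4.06), and each class overlapped the next. Of the tested classes, H2-M3 and H2-Q4 were highest on average in border-associated macrophages, at 25.9 ± 17.5 and 14.4 ± 13.3 CPM, from only 13 and 7 UMIs. H2-Q6 had no WT UMI in astrocytes, fibroblasts, mural cells, neurons or oligodendrocytes, and H2-Q7 had 0 to 5 WT UMIs in each tested class but microglia.

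Lymphocytes, with 3, 7 and 28 nuclei in WT and 120 and 35 in R241E, were too few to be tested and are given as values. H2-Q7 had 843 and 834 CPM in R241E and 139, 723 and 741 CPM in WT lymphocytes, so R241E lay above WT, with 2 of the 3 WT libraries close below. H2-Q6 had 403 and 293 against 417, 322 and 163 CPM, and H2-T23 577 and 541 against 696, 402 and 343 CPM. The lowest H2-Q7 value came from 1 UMI in 3 nuclei. For H2-Q6 and H2-T23 the groups overlapped.

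The genes that work with class Ib chains were examined in microglia by lists. Of 16 classical class I and peptide-loading genes tested, 11 rose and none fell, with a median log2 fold change of 0.93. H2-D1 (3.26, SE 0.15), H2-K1 (3.06, SE 0.17), B2m, the shared light chain (2.17, SE 0.17), and Tap1, a subunit of the peptide transporter (1.90, SE 0.15), changed the most. H2-D1 went from 40.0, 67.8 and 69.9 CPM in WT to 583 and 588 CPM in R241E. The 5 that did not pass the test, named after their values were seen, were the chaperones Calr, Canx, Pdia3 and Tapbpl and the peptide trimmer Erap1. Among 17 genes for the transcription of class I, 6 rose and none fell, with a median of 0.22. They included Nlrc5, the class I transactivator (3.83, SE 0.12), and the interferon-signalling factors Irf7 (3.53, SE 0.22) and Stat2 (2.35, SE 0.13). Nlrc5 had 218 and 210 CPM in R241E and 14.2, 14.99 and 15.3 CPM in WT, with narrow spread in both groups. The RFX and NF-Y subunits, which bind the X and Y boxes with NLRC5, did not pass the test, and neither did Nfkb1 or Rela.

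Of 19 other class Ib and class I-like genes, 5 were tested and 1 rose, with a median of 0.14. It was H2-Q10, a secreted class Ib chain known from liver, with 6.60 and 4.84 CPM in R241E against 0.809, 0.231 and 0.2999 CPM in WT (3.76, SE 0.62, adjusted p = 9.07e-04). Of the H2-Q7 exon runs, 8.1% had an exact copy in it. Cd1d1, a presenter of lipids, was at 6.60 and 8.30 against 4.85, 7.38 and 6.90 CPM (0.12, SE 0.34), and Mr1, a presenter of vitamin B metabolites, at 0.31 (SE 0.29). In 11 of the 19 genes, most of them of the H2-M region, no UMI was found in microglia. Gm7030, listed as H2-T9 in a later annotation and looked at after its values were seen, had 23.6 and 16.6 CPM in R241E and 1.21, 2.08 and 1.1995 CPM in WT. Of the H2-T22 exon runs, 11.1% had an exact copy in it.

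Of 11 receptors listed as readers of class Ib or class I molecules, 3 passed the filter in microglia and were tested, 5 had UMIs but did not pass and 3 had none. Lilrb4a (2.28, SE 0.24) and Pirb (1.01, SE 0.17), inhibitory receptors of myeloid cells, rose. Of these, only Pirb is taken here as a class I receptor. Lilrb4a had 79.2 and 93.4 CPM in R241E and 28.3, 12.5 and 14.1 CPM in WT. Klrd1, which encodes CD94, the partner of NKG2 chains in the Qa-1 receptor, was at 1.88 and 4.15 against 1.62, 3.92 and 2.70 CPM and did not pass the test (-0.15, SE 0.56). Klrc1 and Klrc2, which encode the NKG2 chains, and Trdc, the delta chain constant gene of gamma delta T cells, had no UMI in microglia.

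**Figure D5:**
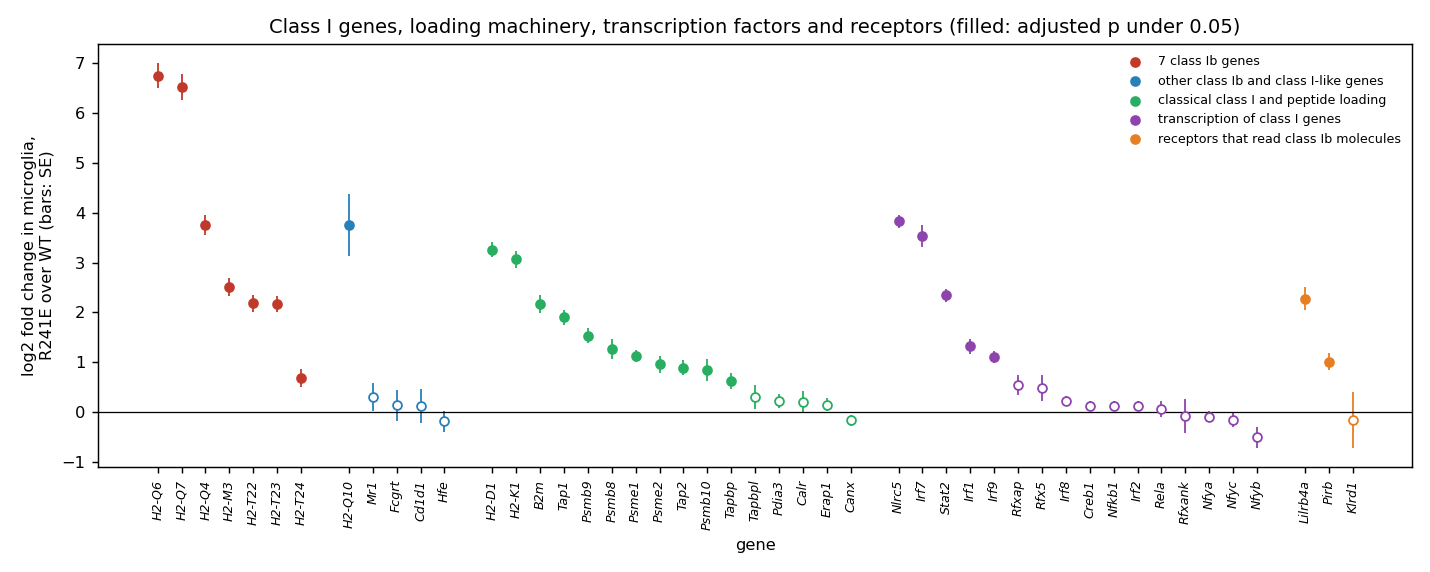
Log2 fold change with SE in microglia for the 7 class Ib genes and the tested genes of the other lists (1 left out), sorted within each list and filled where the adjusted p was under 0.05. The steepest of the other genes were Nlrc5 (3.83), H2-Q10 (3.76) and Irf7 (3.53), near H2-Q4 (3.76), while the RFX and NF-Y subunits lay between -0.50 and 0.55.

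The genes most like each member were sought across 35 sums (7 classes in 5 libraries) among 14429 genes. The points share libraries and classes, and Pearson's r of log2 CPM is given as a description. H2-Q4 was most like Tgtp2 (0.82) and Gbp4 (0.80). H2-Q6 was most like Gm20429 (0.94), Scimp (0.86) and Gm47243 (0.85), and H2-Q7 like Ifi209 (0.88), Ifi214 (0.88) and Gm13822 (0.86). H2-M3 was most like Ccl12 (0.85), Oas1a (0.84) and Dhx58 (0.83), and H2-T23 like Parp12 (0.86), Irgm1 (0.85) and Irf9 (0.81). H2-T22 had lower top values, with Gm7030 (0.73), Parp12 (0.71) and Fam120b (0.70). The nearest to H2-T24 were Snx20 (0.82), Pik3r6 (0.82) and 5430427O19Rik (0.81). Between members, r was highest for H2-Q6 with H2-Q7 (0.88) and lowest for H2-T22 with H2-T24 (0.19).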

How the data were processed

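The authors deposited UMI counts for each gene in each nucleus (10x Genomics 3′ v3.1 libraries). The matrices carry the mark of Cell Ranger 7.0.0, and the reference was mm10. The submitters' processing notes also name Seurat. The sources used here do not say if intronic reads or strand were used. From the deposited counts, nuclei with 200 or more genes, under 4500 genes, under 10000 UMIs and under 5% mitochondrial UMIs were kept, which follows the study. They were clustered with scanpy 1.11.5 (3000 variable genes, 30 components, Leiden resolution 1) and named from marker genes, so class names were rebuilt here. Scrublet called 41 nuclei (0.431% of those kept), too few to rely on, so an alternative left out the 156 nuclei with the highest scores. Counts were summed per mouse and class and tested with edgeR 4.0.16 (TMM, filterByExpr, R 4.3.3). Alternatives were DESeq2 1.42.0 (size factors and Wald test), limma 3.58.1 (voom), no filter, a replicate block, thinned nuclei, lifted limits and leaving out each library. The steps were tested on simulated data. All 7 genes are named in microglia. In the other classes the text names the members that passed the filter, and only some of those that did not. The plot of CPM by cell class shows all 7 genes in each tested class. From each list up to 4 called genes with the largest change are named. A gene of 1 list is counted but not reported here by name. Members and lists were chosen with earlier results of these data known. The study tested nuclei with MAST, which was not repeated because nuclei of 1 mouse are not replicates. Same-numbered mice are not paired by the labels, and their deviations correlated at 0.0994 and -0.0178. RefSeq tables (GRCm38.p6) gave positions for 7 genes and promoters for 6. Copies of 90-base exon runs were sought in GRCm39, whose coordinates are not mixed with mm10. A treatment text on H151 and DMSO in aged mice accompanies the samples, but no label assigns it, and it was not used.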

Additional observations from a re-analysis of the deposited data

Results flagged for a closer look

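The genotype effect on H2-Q7 differed between cell classes. It was 3.69 larger on the log2 scale in microglia than in border-associated macrophages (SE 1.02, edgeR adjusted p = 0.0404, library as block). H2-Q7 was higher in both R241E libraries than in all WT libraries in each of these classes. In both classes H2-Q7 passed the filter on low counts only through the R241E libraries. In macrophages the difference rests on 33 UMIs in R241E and 5 UMIs in WT, and the call was lost when any 1 library was left out. By limma-voom the difference was 3.95 (adjusted p = 8.26e-04).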

How the results depend on the processing

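Of 105 repeats of the 7 microglial values, 101 kept direction and call, and the other 4 were those of H2-T24. The number of genes called in microglia, 1182, was 2108 with the mouse number as a replicate block, 758 on thinned nuclei, 433 with nuclei holding markers of other cells left out, and 536 to 1541 with 1 library left out. The labels do not say that the numbers pair the mice, and the block changed no call of the 7 genes in microglia. Members called there stayed at 6 or 7 in all alternatives. In the other classes the 1 call became 6 with no filter, 0 by DESeq2's Wald test (which gave H2-Q4 in macrophages no adjusted p) and by voom, and 0 to 2 with 1 library left out. On thinned nuclei and with nuclei holding microglial markers left out (not run in macrophages, where 1 to 3 nuclei per library remained) it was 0 because no member passed the filter there. With no filter, calls of all genes rose as well. Genes called higher went from 9 to 104 in astrocytes, 32 to 59 in border-associated macrophages, 13 to 42 in oligodendrocytes and 0 to 2 in mural cells. Calls of a member's effect as different between microglia and another class went from 1 to 6 by voom and 0 to 1 with 1 library left out. The 6 voom calls came from 2 members, H2-Q6 and H2-Q7, each called against macrophages, astrocytes and oligodendrocytes. The difference in the share of microglial nuclei with a UMI, 37.0 percentage points, was 49.8 without thinning, 43.5 at 1500 UMIs and 32.9 to 41.2 with 1 library left out. H2-T24 in neurons, at 0.06 and never called, turned to -0.095 with limits lifted and -0.0065 without top Scrublet scores, and ranged from -0.43 to 0.42 with 1 library left out (below 0 without R241E replicate 1 or WT replicate 2). The causes were not tested. With 2 R241E mice, few UMIs per gene outside microglia limit the other classes: the filter there was 18.6 to 62.7 CPM, so lower members could not be tested.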

Other observations

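In monocytes or neutrophils, which had 18 to 66 nuclei per library and were not tested, H2-T23 had 249.2 and 250.4 CPM in R241E against 229, 377 and 198 CPM in WT, so its groups overlapped. H2-Q7 was at 177 and 250.4 CPM there, against 50.9, 142 and 41.3 CPM, and H2-Q6 at 72.1 and 147 against 50.9, 62.9 and 24.8 CPM. Endothelial nuclei, 7 to 17 per library, had 116 and 321 CPM of H2-T23 in R241E and 0, 45.3 and 103 CPM in WT, from 5, 10, 0, 1 and 3 UMIs.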
